A study of Mus musculus with 38 samples.

Results

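The H19 and Igf2 imprinted locus is made up here of 3 genes on distal mouse chromosome 7, H19, Igf2 and Ins2, out of 55413 GENCODE genes on chromosomes 1 to 19, X and Y. The members were chosen by position and by the chromatin marks called over them, with the difference between IκBα-KO and IκBα-WT libraries in all 5 marks known. For that reason every value below is a description, and no test of the KO against the WT is given. The study had profiled, by chromatin immunoprecipitation and sequencing (ChIP-seq), the histone marks H3K4me3, H3K27me3, H3K9me3, H3K27ac and H3K4me1, in ES-E14TG2a, an established line of male mouse embryonic stem cells. Cells had been grown with serum and leukaemia inhibitory factor (LIF) on gelatin and were taken at 0 h. WT cells (labelled IkappBalpha+/+) were clones that had received non-targeting guides, and KO cells were clones in which Nfkbia, the gene of the NF-κB inhibitor IκBα, had been disrupted with CRISPR/Cas9. For each mark there were 3 libraries per genotype, from independently derived clones of that 1 line according to the methods, so that 30 of 38 samples were ChIP libraries and the other 8 were inputs.

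H19 and Igf2 are the classical pair of oppositely imprinted neighbours. H19, a non-coding RNA, is made from the maternal chromosome, and Igf2, a fetal growth factor of the insulin family, from the paternal one. Between them, close to H19, lies an imprinting control region that is DNA-methylated on the paternal chromosome. CTCF binds it on the unmethylated maternal chromosome and keeps Igf2 from using the enhancers beyond H19. Methylated control regions are known to carry H3K9me3 in embryonic stem cells, through ZFP57 and its partner TRIM28. Ins2, one of the insulin genes of the mouse, lies beyond Igf2 and is used in the pancreas and, imprinted, in the yolk sac. H3K4me3 marks active promoters, H3K27ac active promoters and enhancers, H3K4me1 enhancers, and H3K27me3 the targets of Polycomb repression. The lists do not separate parental chromosomes, and the cells were measured in bulk. A mark on more chromosomes or cells and more of the mark on each therefore cannot be told apart.

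All 3 genes are on the minus strand of GRCm38 chromosome 7. H19 (ENSMUSG00000000031.16) runs from 142575529 to 142578143, Igf2 (ENSMUSG00000048583.16) from 142650766 to 142666816, and Ins2 (ENSMUSG00000000215.11) from 142678656 to 142743381. The Ins2 record of 64726 bp owes its length to long transcripts that start at 142699510 and 142743381. Its short transcript lies between 142678659 and 142679726. Gene windows add 5 kb on either side and measure 12615, 26051 and 74726 bp. The locus from 5 kb beyond H19 to 5 kb beyond Ins2 spans 177853 bp. Positions are given below as the distance from the 5′ end of H19, positive towards Igf2, whose most distant 5′ end lies at 88.7 kb.

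RefSeq places the imprinting control region at 142580248 to 142582833, which is 2105 to 4690 bp upstream of H19, in intergenic sequence. Within this region RefSeq annotates the nuclease-sensitive fragments HS2, nearer to H19, and HS1, with a gap between them. The control region holds 66 CpG dinucleotides in 2586 bp, or 25.5 per kb, against 9.32 per kb across the locus. The sequences below lie in the control region and just upstream of H19, where the calls of H3K9me3, H3K27ac and H3K4me1 differed between the genotypes, and 1 of them is where H3K4me3 peaks of the KO met. The 4 CTCF sites annotated there are printed from the GRCm38 plus strand, from the one farthest from H19 (m1, chr7:142582026-142582073) through m2 (chr7:142581782-142581826) and m3 (chr7:142580756-142580803) to the nearest (m4, chr7:142580301-142580347). Capitals mark the 14 letters CTGCCNCCNNGCGG that the sites share, a pattern read from these sites themselves.
CTCF site m1: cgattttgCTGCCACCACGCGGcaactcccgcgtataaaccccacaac
CTCF site m2: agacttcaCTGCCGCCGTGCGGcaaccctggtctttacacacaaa
CTCF site m3: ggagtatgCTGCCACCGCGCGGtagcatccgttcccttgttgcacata
CTCF site m4: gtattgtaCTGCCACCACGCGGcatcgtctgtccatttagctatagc
The pattern, searched on both strands, had 4 matches in the locus, and these 4 sites were all of them. It was found in 40 of 32851 RefSeq promoter sequences of GRCm38 (0.122%), and in 0.0967% of the 54824 windows of the control region's length on chromosome 7. A match is a description of the letters and was not used as evidence of binding.

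Between the m2 and m3 sites RefSeq also annotates paired binding sites for SOX and OCT proteins, regulators of pluripotent cells, at chr7:142581394-142581408 (Sox-OctB) and chr7:142581414-142581428 (Sox-OctA).
Sox-OctB site: attagcatctgaacg
Sox-OctA site: attagaatacgaaag
H3K4me3 peaks of the KO libraries met in 146 bp of the HS2 fragment, next to the m4 site, at chr7:142580453-142580598, printed from the plus strand with its 6 CpG dinucleotides in capitals.
Shared H3K4me3 peak: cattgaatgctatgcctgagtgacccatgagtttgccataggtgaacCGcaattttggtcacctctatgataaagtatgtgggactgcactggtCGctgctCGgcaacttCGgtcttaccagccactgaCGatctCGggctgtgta
The 200 bp just upstream of the H19 start, chr7:142578144-142578343, are printed from the minus strand, in the direction of H19, with their 13 CpG dinucleotides in capitals.
Upstream of H19: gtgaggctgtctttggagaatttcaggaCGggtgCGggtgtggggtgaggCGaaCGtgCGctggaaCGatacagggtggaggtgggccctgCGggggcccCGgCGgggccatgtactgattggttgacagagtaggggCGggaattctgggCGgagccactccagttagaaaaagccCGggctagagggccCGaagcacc

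The lists differ in what they hold. H3K4me3 lists are peaks, 21836 to 26806 per library, with a fold enrichment over input and no counts. The lists of the other marks hold regions, called in steps of 200 bp, with ChIP and input read counts, and a library had 35979 to 52748 regions for H3K9me3, 41182 to 52348 for H3K27me3, 44977 to 57645 for H3K27ac and 70180 to 76172 for H3K4me1. Where nothing was called no count is listed, so a window without a call was under the threshold of a false discovery rate (FDR) of 0.05 and was not necessarily free of reads. Input reads per kb of called sequence at the locus were 0.807 to 1.02 times those of the whole list in each of the 24 lists with counts. At their 5′ ends, 6 of 8 stem cell markers had an H3K4me3 call and 7 of 8 an H3K27ac call in all 6 libraries. Pou5f1, Sox2, Nanog, Zfp42, Tdgf1 and Utf1 had both, and Esrrb had neither within 1000 bp of its annotated 5′ end. Of 3 fibroblast genes, Thy1 had both marks in all 6 libraries, Col1a2 had neither in any, and Col1a1 had H3K27ac in 3 WT libraries and 1 KO library but H3K4me3 in 0 WT and 2 KO libraries. H3K4me3 was also called in all 6 libraries at 1 of 4 endoderm, 4 of 4 mesoderm, 2 of 3 neural and 2 of 3 trophoblast genes, and H3K27ac at 2, 1, 2 and 2 of them.

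**Figure D1:**
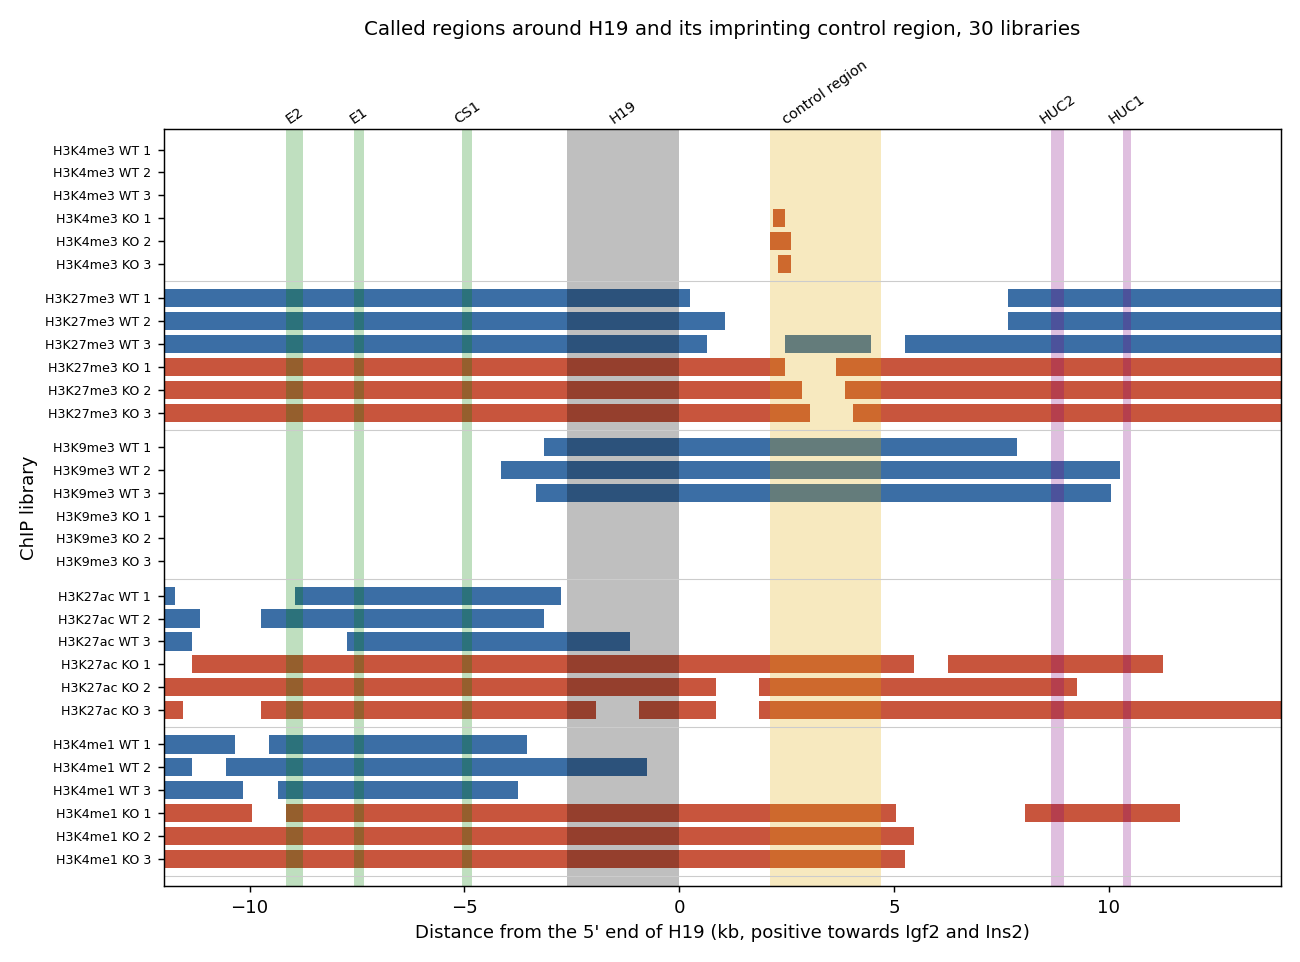
Called regions of each of the 30 libraries (rows) by distance from the 5′ end of H19 in kb (horizontal axis), with WT in blue and KO in red. Shaded bands are H19, the imprinting control region, the enhancers E2, E1 and CS1 and the upstream elements HUC2 and HUC1. H3K9me3 bars cover the control region in the 3 WT rows only, and H3K27ac and H3K4me1 bars in the 3 KO rows only.

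At H19 and its control region, H3K9me3 was called in every WT library and in no KO library. The WT 1 call ran from 142575001 to 142586000 with 1262 ChIP and 210 input reads. The WT 2 call ran from 142574001 to 142588400 with 1225 ChIP and 279 input reads. The WT 3 call ran from 142574801 to 142588200 with 1134 ChIP and 261 input reads. Each therefore spanned the whole H19 gene and the whole control region, and their enrichment over input was 7.05-fold, 5.85-fold and 6.27-fold. These folds were higher than those of 92.3%, 89.0% and 88.7% of the calls in the same list.

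In the H19 window H3K9me3 calls covered 8143, 9143 and 8343 bp in the WT libraries (mean 8543 ± 529 bp, SD, n = 3) and 0 bp in each KO library. H19 was the 1 of 3 members in which the KO was lower in covered bp with no overlap of the groups, where 11.6% of all gene windows with an H3K9me3 call had that pattern and 3.86% the reverse. The sequence called in all 3 WT and no KO library was a single stretch of 11000 bp, from −3.14 to 7.86 kb. It made up 32.6% of all bases of the locus that any H3K9me3 list called. Bases restricted to the KO were 200 bp (0.592%), at 94 kb. Genome-wide 2.14% of called bases were restricted to the WT in this way and 0.625% to the KO. Since the rule used these values, nothing is read from the shares. The KO lists did hold weak calls in the locus, such as one of 1.30-fold enrichment in KO 1, from 29.7 to 32.7 kb, with 82 ChIP reads over 3000 bp.

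H3K4me3 showed the opposite arrangement. No WT library had a peak in the H19 window, and each KO library had a single peak, inside the HS2 fragment of the control region. The peak of KO 1 was 274 bp long with 3.88-fold enrichment (q = 6.29e-04), that of KO 2 was 469 bp long with 5.30-fold (q = 1.34e-07), and that of KO 3 was 286 bp long with 4.63-fold (q = 3.44e-06). The q-values are those of the peak caller for each peak against its input. They were weak peaks, with higher folds than 6.92%, 35.2% and 25.3% of the peaks in their lists. The KO lists were also longer, with 23736, 26377 and 26806 peaks against 23059, 21836 and 23638 in the WT. The KO 2 peak held all 47 bp of the m4 CTCF site, the KO 1 peak 23 bp of it and the KO 3 peak none, and no peak reached the m1, m2 or m3 site. No library of either genotype had H3K4me3 within 1000 bp of the 5′ end of H19 itself. The KO was higher without overlap at H19 and at neither of the other members, against 24.3% of gene windows with an H3K4me3 call (7.27% the reverse). Bases called in all KO and no WT libraries were 8.04% of the H3K4me3 bases of the locus and 3.36% of those of the genome, and bases restricted to the WT were 0 bp and 1.02%.

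In the KO, H3K27ac calls ran from the enhancers nearest to H19 over that gene and the control region. They were unbroken in KO 1 and had gaps in KO 2 and KO 3. H3K27ac regions of the KO were wider over the whole genome too, with medians of 5000, 5200 and 5600 bp against 4200, 4200 and 4800 bp in the WT. Within the H19 window the calls covered 4872, 4472 and 6472 bp in the WT and 12615, 11615 and 10615 bp in the KO. All KO libraries lay above all WT libraries, with means of 5272 ± 1058 bp and 11615 ± 1000 bp (SD, n = 3 each). Called ChIP reads per kb of window were 18.0, 15.7 and 24.1 in the WT and 46.5, 46.9 and 37.6 in the KO, a ratio of means of 2.27. Per kb of called sequence they were 46.6, 44.2 and 47.0 in the WT and 46.5, 51.0 and 44.7 in the KO, so the calls were longer and of like density. H3K27ac covered all 2586 bp of the control region in each KO library and none of it in a WT library. The KO calls over it were 16800, 7400 and 12400 bp long and held 46.5, 50.3 and 38.1 reads per kb. These are averages of whole calls and not levels of the control region alone. Enrichment over input of these KO calls was 1.62-fold, 1.68-fold and 1.64-fold, higher than that of 47.0%, 53.8% and 49.0% of the calls in their lists. The WT calls ended at −2.74, −3.14 and −1.14 kb, within or just beyond the 3′ end of H19. H19 was again the only member of the 3 with a gain free of overlap, beside 17.4% of gene windows by covered bp (7.90% the reverse) and 24.7% by reads per kb (9.19% the reverse).

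H3K4me1 showed a like arrangement. It covered 4072, 6872 and 3872 bp of the H19 window in the WT, and the whole window of 12615 bp in each of the 3 KO libraries. Reads per kb of window were 23.9, 34.1 and 25.8 in the WT and 86.2, 72.7 and 77.0 in the KO, with means of 27.9 ± 5.42 and 78.6 ± 6.90 (SD, n = 3 each). The KO calls were 14200, 19400 and 18800 bp long, and their levels are averages of the whole call. Per kb of called sequence the WT had 74, 62.6 and 83.9 reads, and the groups overlapped. A KO call ran unbroken from the enhancers to 5.06, 5.46 and 5.26 kb, past the far end of the control region. In the WT the calls ended at −3.54, −0.743 and −3.74 kb and left the control region bare. The share of gene windows with the KO higher was 9.32% by covered bp and 15.5% by reads per kb, and with the KO lower 14.3% and 30.0%.

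H3K27me3 approached the control region from both sides in the KO. In the H19 window it covered 7872, 8672 and 10272 bp in the WT and 11415, 11615 and 11615 bp in the KO. Reads per kb of window were 22.8, 22.9 and 26.95 in the WT and 50.0, 52.4 and 44.1 in the KO, a ratio of means of 2.02. Unlike the calls of H3K27ac and H3K4me1, these were also denser, with 36.5, 33.4 and 33.1 reads per kb of called sequence in the WT and 55.3, 56.9 and 47.9 in the KO. WT 1 and WT 2 had no H3K27me3 call in the control region, and WT 3 had one of 2000 bp with 60 ChIP reads. In the KO, calls covered 1386, 1586 and 1586 bp of it and left a gap in its middle, from 2.46 to 3.66 kb in KO 1, from 2.86 to 3.86 kb in KO 2 and from 3.06 to 4.06 kb in KO 3. The groups overlapped in the control region because of WT 3.

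**Figure D2:**
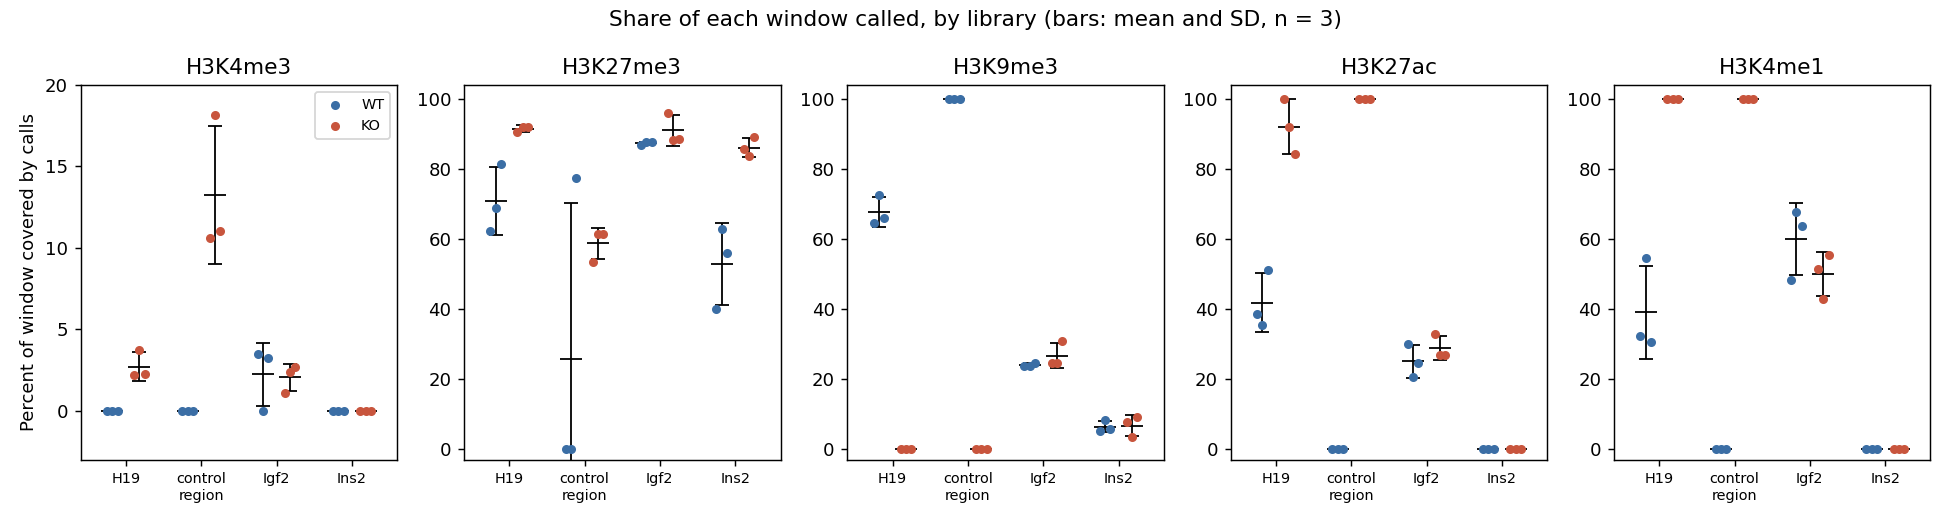
Percent of each window covered by calls (vertical axis, 0 to 20 for H3K4me3 and 0 to 100 for the others) in the H19 window, the imprinting control region and the Igf2 and Ins2 windows. Points are libraries, WT in blue and KO in red, and bars are the mean and SD of 3. H3K9me3 falls from 100 to 0% of the control region and H3K27ac and H3K4me1 stand at 0 in the WT and 100% in the KO, while Igf2 shows no such shift.

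The window set by distance, from 2000 to 4000 bp upstream of H19, gave the same arrangement as the annotated control region. H3K9me3 covered all 2000 bp of it in each WT library and none in the KO, and H3K27ac and H3K4me1 covered all of it in each KO library and none in the WT. Within 1000 bp of the H19 5′ end, H3K9me3 covered the whole 2001 bp in each WT library. H3K27ac covered 0 bp there in the WT and 2001, 1858 and 1800 bp in the KO. H3K4me1 covered 0, 258 and 0 bp in the WT and 2001 bp in each KO library. The microRNA gene Mir675, which lies inside H19, followed H19, with H3K9me3 in 3 of 3 WT and 0 of 3 KO libraries.

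Beyond H19, on the side away from Igf2, RefSeq annotates an enhancer region of 25997 bp that serves both genes in several tissues. None of its sequence had an H3K9me3 or H3K4me3 call in any library. The endoderm enhancer E1 and the ectoderm enhancers CS1 and CS5 were covered whole by H3K27ac, H3K4me1 and H3K27me3 in all 6 libraries of each mark. Over the whole region, these enhancers included, H3K4me1 was wider in the KO, with 18007 ± 1035 bp against 13445 ± 2603 bp in the WT (SD, n = 3 each), and the groups did not overlap. H3K27ac covered 18407 ± 4080 bp in the KO and 11112 ± 5765 bp in the WT, and those groups overlapped, while its reads per kb of region did not, at 17.7 ± 7.1 in the WT and 31.3 ± 2.71 in KO libraries (SD, n = 3 each). H3K27me3 was also wider in the KO without overlap, with 25940 ± 49.1 bp against 23845 ± 757 bp in the WT. Its reads per kb were 53.0 ± 4.91 and 32.6 ± 1.24 (SD, n = 3 each), without overlap. By covered bp, 9.32% of all gene windows were higher in the KO for H3K4me1 (14.3% lower) and 9.90% for H3K27me3 (6.51% lower). By reads per kb the shares were 24.7% for H3K27ac (9.19% lower) and 19.2% for H3K27me3 (11.5% lower). The mesenchymal enhancer CS7 had H3K4me1 in 1 WT and 3 KO libraries. The skeletal muscle enhancer CS9 had H3K27ac in 0 WT and 2 KO libraries. On the other side of the control region, the upstream element HUC2 had H3K27ac in 0 of 3 WT and 3 of 3 KO libraries, and HUC1 in 0 and 2.

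**Figure D3:**
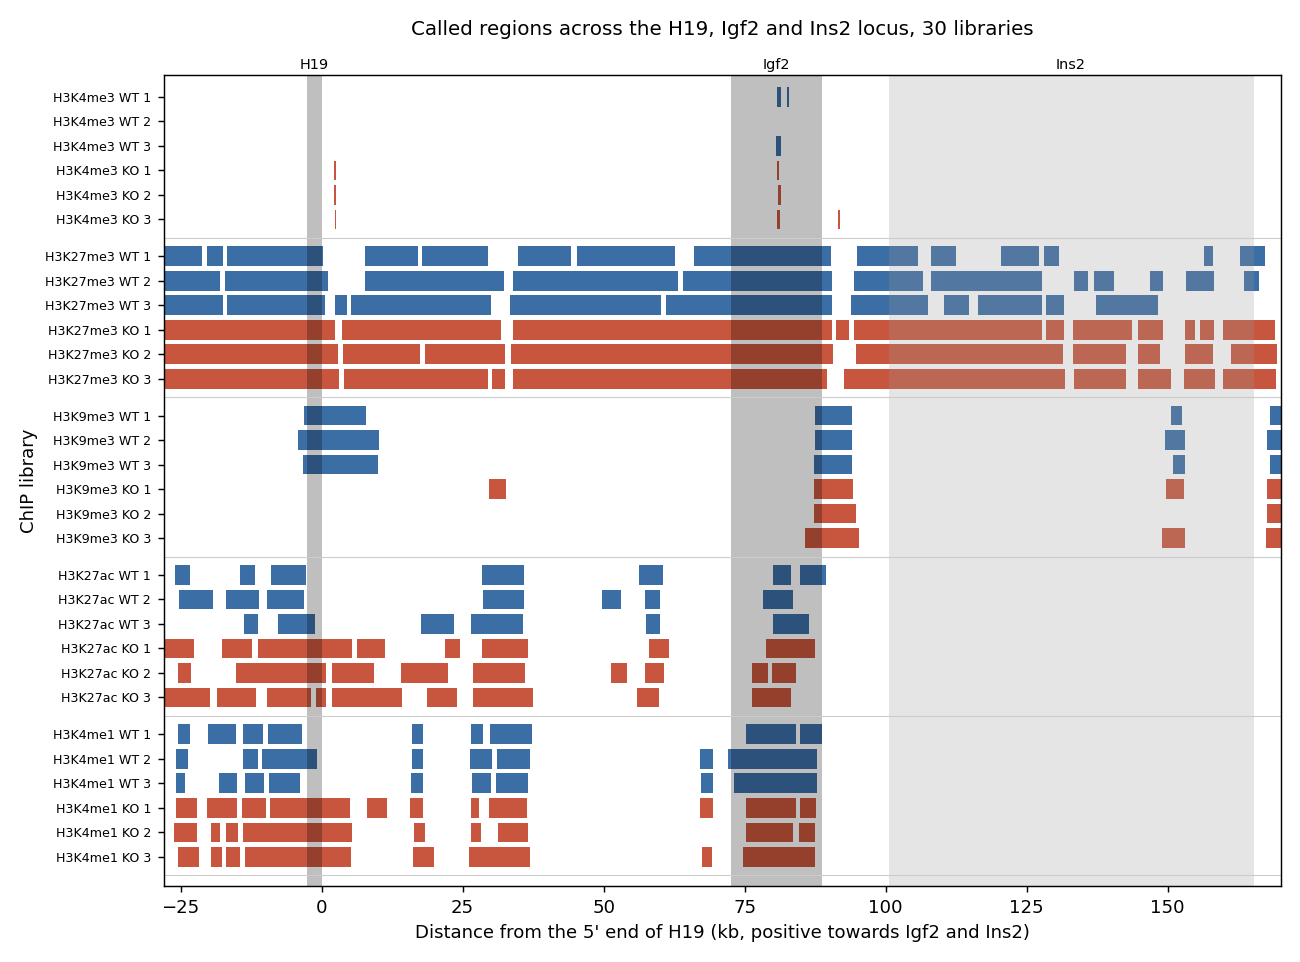
Called regions of each of the 30 libraries (rows, WT in blue and KO in red) across the locus, by distance from the 5′ end of H19 in kb, with the gene bodies of H19, Igf2 and Ins2 shaded. The H3K9me3 call at about 90 kb, at the far end of Igf2, appears in all 6 rows, and H3K27me3 bars are longer and less broken in the KO rows over Ins2.

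Igf2 differed from H19 in keeping an H3K9me3 call in the KO. A call over the most distant Igf2 promoter, at 88.7 kb, was present in all 6 libraries, from 87.3 or 87.5 kb to 94.1 kb in the WT. It held 695, 572 and 620 ChIP reads in the WT and 703, 479 and 559 in the KO. In the Igf2 window H3K9me3 covered 6216, 6216 and 6416 bp in the WT and 6416, 6416 and 8016 bp in the KO, and reads per kb of window were 25.1, 20.7 and 22.5 against 24.7, 15.9 and 17.9. Both measures overlapped between the groups. The enrichment over input of that call was 6.47-fold, 6.05-fold and 6.68-fold in the WT and 4.94-fold, 3.47-fold and 3.24-fold in the KO. It was thus lower in the KO without overlap. These folds were higher than those of 90.8%, 89.8% and 90.3% of the calls in the WT lists and of 79.2%, 64.3% and 55.9% in the KO lists. The input held 19.1 to 19.7 reads per kb of the call in the WT and 24.4 to 24.6 in the KO, and the part of the input in the lower fold was not tested. The 6600 bp that all 6 calls shared hold 13.0 CpG dinucleotides per kb, compared with 25.5 in the control region.

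H3K4me3 at Igf2 lay mainly at an internal promoter, at about 81 kb, rather than at the distant one. Peaks there measured 677 bp in WT 1, 844 bp in WT 3, and 289, 620 and 454 bp in KO 1, KO 2 and KO 3, with 5.36-fold, 6.80-fold, 4.76-fold, 4.81-fold and 5.18-fold enrichment. WT 2 had no H3K4me3 peak anywhere in the locus. Over the Igf2 window H3K4me3 covered 902, 0 and 844 bp in the WT and 289, 620 and 696 bp in the KO, and the groups overlapped. The WT 1 value includes a second peak of 225 bp with 3.02-fold enrichment, at 82.6 to 82.8 kb, near other internal 5′ ends of Igf2. The additional 242 bp of KO 3 lay at 91.6 to 91.9 kb, at the 5′ end of Gm49394, a predicted coding gene whose 3′ end lies at that of Igf2, and inside the antisense RNA Igf2os. The same internal promoter carried H3K27ac, H3K4me1 and H3K27me3 over its whole 2001 bp in all 6 libraries of each mark.

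H3K27me3 covered most of the Igf2 window in both genotypes. Calls spanned 22635, 22835 and 22835 bp in the WT and 25035, 23035 and 23051 bp in the KO. The KO was higher without overlap by a mean of 939 bp. Reads per kb of window went the other way, with 80.9, 87.0 and 80.8 in the WT and 74.7, 78.1 and 70.1 in the KO, again without overlap, a ratio of means of 0.897. The WT calls over Igf2 were shorter and separate, at 24200, 26400 and 29400 bp, while each KO call was merged with its neighbour into 56600, 57000 and 55800 bp. Reads were spread evenly over a call, so the level in a window is the average of the whole call it belongs to. The nearest separate WT calls on the side of H19 held 36.1, 35.5 and 34.4 reads per kb. The merged KO calls take in such sequence, and its part in their lower level was not tested.

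H3K27ac and H3K4me1 in the Igf2 window overlapped between the genotypes by covered bp and by reads per kb. H3K27ac covered 7800, 5400 and 6400 bp of the window in the WT and 8600, 7000 and 7000 bp in the KO. H3K4me1 covered 12600, 17635 and 16635 bp in the WT and 13435, 11200 and 14435 bp in the KO. Over the gene body alone, with no flank, H3K4me1 reads per kb were lower in the KO without overlap, while covered bp still overlapped. They were 81.1 ± 2.80 in the WT and 72.1 ± 1.42 in KO libraries (SD, n = 3 each). By reads per kb, 30.0% of all gene windows were lower in the KO and 15.5% higher. Per kb of called sequence the body held 99.5, 85.9 and 90.7 reads in the WT and 100.3, 101.1 and 91.9 in the KO. At the distant Igf2 promoter a small difference was seen, since H3K4me1 calls reached 985, 185 and 185 bp into its window in the WT and 0 bp in each KO library. Mir483, a microRNA gene in an Igf2 intron, had H3K27me3 and H3K4me1 in all 6 libraries of each mark.

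Ins2 had no call of H3K4me3, H3K27ac or H3K4me1 in any library. Its window was described by H3K27me3, which covered 29945, 46945 and 41945 bp in the WT and 63945, 62545 and 66545 bp in the KO. The means were 39612 ± 8737 bp and 64345 ± 2030 bp (SD, n = 3 each), and no KO library reached down to a WT library. Reads per kb of window rose with the covered length, from 14.2, 19.4 and 17.7 in the WT to 36.9, 36.7 and 38.3 in the KO. This difference came largely from sequence that the long transcripts add. In the window of the short transcript, of 11068 bp, H3K27me3 covered 10759 ± 535 bp in the WT and all 11068 bp in each KO library, and the groups overlapped in covered bp. Reads per kb there were 42.7 ± 2.17 in the WT and 50.6 ± 0.841 in KO libraries (SD, n = 3 each), and did not overlap. H3K9me3 covered 3981, 6181 and 4381 bp of the full Ins2 window in the WT and 5781, 2581 and 6781 bp in the KO, all of it at about 150 kb and beyond 167 kb, and the groups overlapped.

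By covered bp, all 3 members were thus higher in the KO for H3K27me3, where 9.90% of gene windows were higher and 6.51% lower. By reads per kb 2 of 3, H19 and Ins2, were higher and Igf2 was lower, where 19.2% of gene windows were higher and 11.5% lower. The Igf2 value in the KO is an average over merged calls, as given above, and is not a level of Igf2 alone. For H3K9me3, reads per kb could be compared at Igf2 and Ins2, which overlapped, beside 5.92% of gene windows with the KO higher and 14.7% with the KO lower. In the sequence between H19 and Ins2, of 100512 bp, H3K27me3 covered 85245 ± 6503 bp in the WT and 94445 ± 1007 bp in the KO. Over the whole locus it covered 127472 ± 14763 bp and 161405 ± 2468 bp, and its reads per kb were 33.7 ± 2.83 and 54.7 ± 1.51 (SD, n = 3 each). H3K9me3 over the whole locus was at 11.5 ± 0.604 reads per kb in the WT and 4.64 ± 1.24 in the KO. H3K27ac was at 7.54 ± 1.07 and 12.3 ± 0.975, and H3K4me1 at 14.7 ± 1.06 and 17.6 ± 1.50, each without overlap of the groups.

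**Figure D4:**
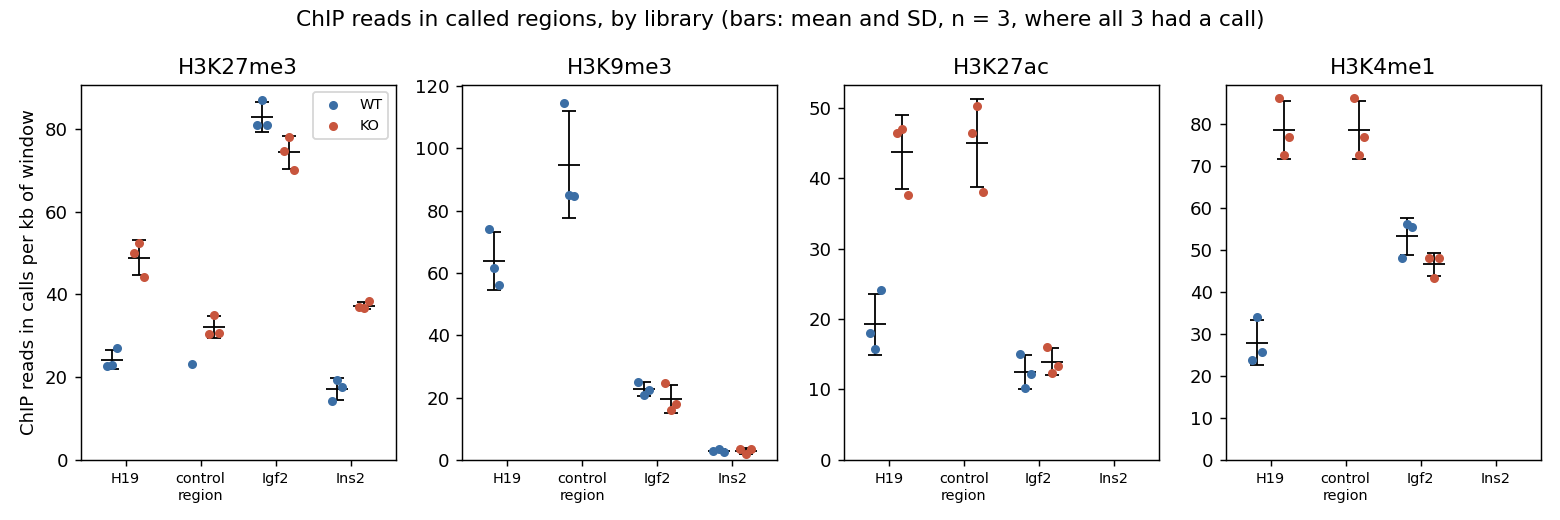
ChIP reads in called regions per kb of window (vertical axis, a separate scale for each mark) in the H19, control region, Igf2 and Ins2 windows. Points are libraries, WT in blue and KO in red, bars are the mean and SD of 3, and a library without a call has no point. H3K27me3, H3K27ac and H3K4me1 of H19 are higher in the KO, and H3K27me3 of Igf2 is lower, as an average over longer, merged KO calls. Reads are spread evenly over a call, so values in the control region are averages of whole calls.

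Bases called in all 3 libraries of a genotype and none of the other were counted for the remaining marks as well. For H3K27ac 8600 bp, or 12.9% of the called bases of the locus, were restricted to the KO and 0 bp to the WT, where the whole genome gave 2.41% and 1.45%. For H3K4me1 they were 5800 bp (11.4%) and 200 bp (0.392%), with 1.38% and 1.55% genome-wide. For H3K27me3 they were 7400 bp (4.34%) and 0 bp, with 2.04% and 1.00% genome-wide. The H3K27ac stretches ran from −0.942 to 0.857 kb, over the start of H19, from 1.86 to 5.46 kb, over the control region, and from 6.26 to 9.26 kb, with 200 bp more at about 36 kb. The H3K4me1 bases formed one stretch from −0.742 to 5.06 kb.

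Of the other genes in the locus, Gm33148, a non-coding RNA between H19 and Igf2, had overlapping groups for all 5 marks by covered bp. Its H3K27me3 reads per kb did not overlap, at 31.8 ± 1.73 in the WT and 59.9 ± 3.06 in KO libraries (SD, n = 3 each). Its H3K27ac calls at 26.5 to 37.5 kb were present in all 6 libraries. Igf2os, antisense to Igf2, had H3K4me1 over 6308 bp in each WT library and a lower mean of 5375 ± 503 bp in the KO (SD, n = 3), without overlap. Its H3K4me1 reads per kb overlapped between the groups, at 52.5 ± 1.46 in the WT and 47.2 ± 3.97 in KO libraries (SD, n = 3 each). On the side of the enhancers, the windows of Mrpl23, a gene of the mitochondrial ribosome, and of Nctc1, a muscle non-coding RNA, had wider H3K27me3 and H3K27ac calls in the KO without overlap. The Nctc1 window overlaps the enhancer region and holds CS6, CS7 and CS9, so its values partly repeat those of the enhancers. It also overlaps the Mrpl23 window. H3K4me3 at Mrpl23 covered 729 ± 38.4 bp in the WT, compared with 719 ± 81.5 bp in KO libraries (SD, n = 3 each). Tnnt3 and Lsp1, whose windows overlap each other, had wider H3K27ac in the KO with no overlap of the groups. Their H3K27me3 reads per kb were also higher in this way, at 38.7 and 39.0 in the WT and 49.8 and 50.1 in the KO (means of 3 libraries). On the other side, Ascl2, a regulator of the placenta, had less H3K9me3 in the KO, with 3667 ± 833 bp in the WT and 2133 ± 306 bp in KO libraries (SD, n = 3 each). Its H3K4me3 was also lower without overlap, at 1933 ± 12.7 bp in the WT and 1629 ± 158 bp in KO libraries (SD, n = 3 each). Th, which encodes tyrosine hydroxylase, had wider H3K27me3 and less H3K4me1 in the KO without overlap. By covered bp, the KO was higher in 17.4% of all gene windows for H3K27ac (7.90% lower) and 9.90% for H3K27me3 (6.51% lower). It was lower in 14.3% for H3K4me1 (9.32% higher), 11.6% for H3K9me3 (3.86% higher) and 7.27% for H3K4me3 (24.3% higher). By reads per kb it was higher in 19.2% for H3K27me3 (11.5% lower).

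A list of 22 genes related to the locus by function and not by position was examined for the same pattern. It held ligands and receptors of the insulin family, IGF-binding proteins, proteins that bind Igf2 mRNA and regulators of the control region. By H3K9me3, Igf1, Igf2r, Ctcfl and Zfp445 were lower in the KO without overlap and Igf2bp1 and Igf2bp3 higher, 4 and 2 of 19 genes with a call, where 11.6% of all gene windows were lower and 3.86% higher. Igf2r, the receptor that clears IGF2 and is itself imprinted, fell from 22200, 26400 and 22600 bp to 6200, 3200 and 3600 bp. By H3K4me3, Igf2bp1, Irs2, Ctcf, Zfp57 and Trim28 were higher in the KO and Igfbp2 and Igfbp3 lower, 5 and 2 of 19. These counts are near the background of 24.3% of gene windows higher and 7.27% lower. Zfp57 and Trim28, which hold H3K9me3 at methylated control regions, had H3K4me3 over 1909 ± 293 bp and 9833 ± 539 bp in the WT. Their KO values were 3739 ± 777 bp and 13026 ± 1466 bp (SD, n = 3 each). H3K27ac overlapped between the groups at both genes. H3K4me1 was lower in the KO without overlap at Zfp57 and overlapped at Trim28. Ctcf lies where the input of the H3K4me1 experiment was raised in the KO, by 0.47 (log2) beyond the genome-wide ratio. By H3K27ac 3 of 21 were higher and 3 lower (17.4% and 7.90% of gene windows), by H3K4me1 2 and 4 of 21 (9.32% and 14.3%), and by H3K27me3 1 and 0 of 18 (9.90% and 6.51%). The median KO minus WT difference over the list was −733 bp for H3K9me3 and 151 bp for H3K4me3, beside −267 and 105 bp over all gene windows with a call. It was −310 bp for H3K27me3, 0 for H3K27ac and −467 bp for H3K4me1, beside 200, 333 and −200 bp.

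H3K9me3 was lower in the KO at most other imprinted genes listed. Of a list of 18, 16 had an H3K9me3 call, and 14 of these were lower in the KO without overlap and 0 higher, where 11.6% of gene windows were lower and 3.86% higher. The median difference over the 16 was −15616 bp, beside −267 bp over all gene windows with a call. Mest, Meg3, Nap1l5 and Nnat went from 16400 ± 1000, 24709 ± 5600, 11844 ± 0 and 11656 ± 833 bp in the WT (SD, n = 3 each) to 0 bp in each KO library. Snrpn kept 2067 ± 503 of 18600 ± 3639 bp, and Grb10 10600 ± 2800 of 32800 ± 2458 bp. Rasgrf1, like Igf2, kept its calls, with 12800, 11200 and 7400 bp in the WT and 7800, 9600 and 9200 bp in the KO, and the groups overlapped. Igf2r and Airn have overlapping windows and are not independent in these counts.

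By H3K4me3, 10 of the 18 imprinted genes were higher in the KO without overlap and 0 lower, where 24.3% of gene windows were higher and 7.27% lower. The median difference was 708 bp, beside 105 bp over all gene windows with a call. Mest had no H3K4me3 in the WT and 2056, 2976 and 2523 bp in the KO. Nnat had 541, 506 and 895 bp in the WT and 1730, 2530 and 2434 bp in the KO. H3K4me1 was higher at 9 and lower at 3 of 18 (9.32% and 14.3% of gene windows), H3K27ac higher at 6 and lower at 4 of 17 (17.4% and 7.90%), and H3K27me3 higher at 6 and lower at 1 of 16 (9.90% and 6.51%). Median differences for these were 2530, 2133 and 2980 bp, beside −200, 333 and 200 bp over all gene windows with a call. Meg3, also named above for H3K9me3, and Dlk1, both lower in H3K27ac and H3K4me1, lie on chromosome 12 where the KO input of the H3K4me1 experiment was lower by 0.95 (log2) for each, and the part of this in their values was not tested. The same measure around H19, Igf2 and Ins2 was −0.07, −0.06 and −0.06.

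**Figure D5:**
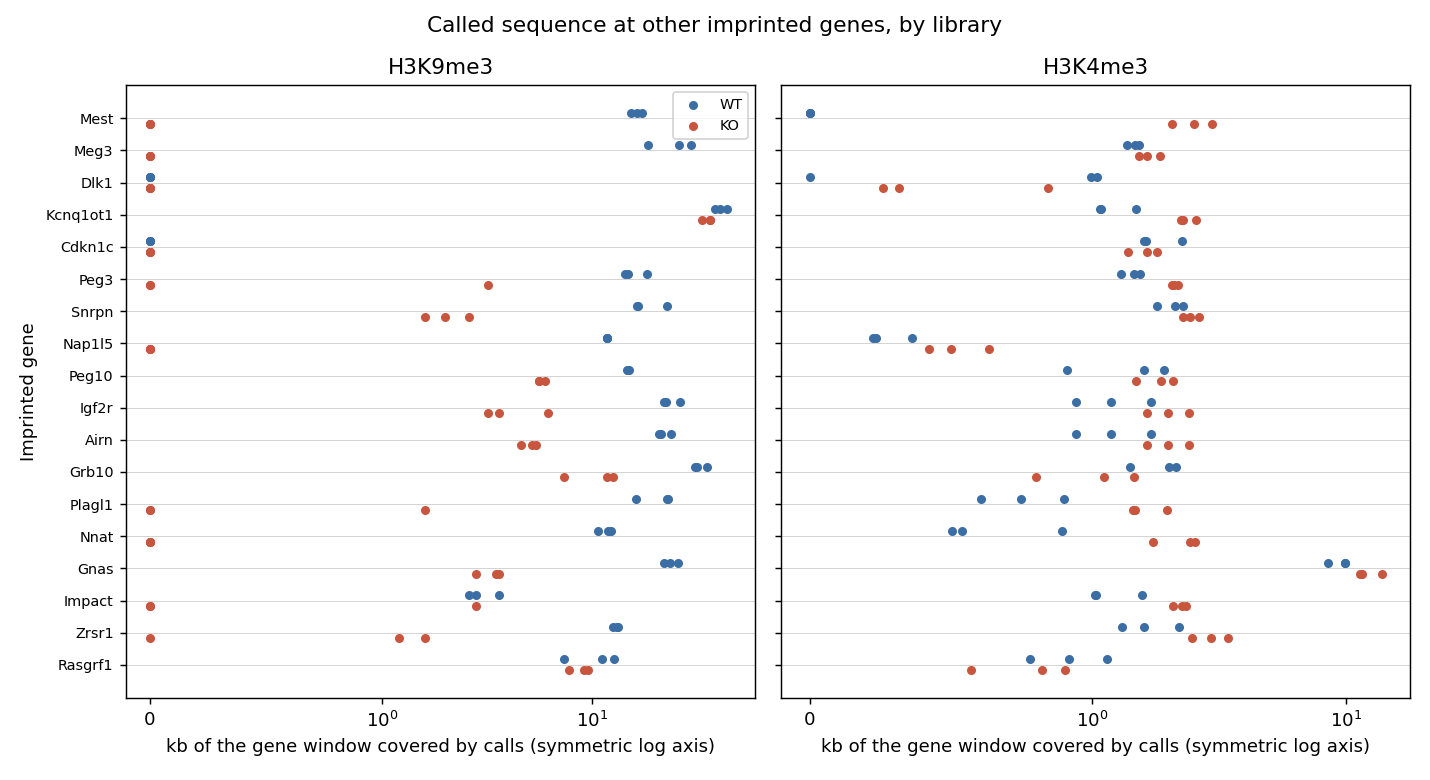
Sequence covered by H3K9me3 (left) and H3K4me3 (right) calls in the windows of 18 other imprinted genes, in kb on an axis that is linear to 1 kb and logarithmic beyond. Each point is a library, WT in blue and KO in red. For H3K9me3 the KO points lie left of the WT points in 14 genes, and those of Rasgrf1 lie among the WT points.

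The genes whose share of window covered by calls was most like that of each member over the 30 libraries were ranked by Pearson's r among 29321 genes with a call. The points share libraries and marks, so r mainly follows which marks a gene carries, and it is given with no test. For H19 the closest was Mest, the imprinted gene named above (r = 0.876), and the non-coding RNA AC132133.2 was also among the highest (0.862). Between WT and KO, the covered share of the Mest window was 47.0 and 0% by H3K9me3, 0 and 56.1% by H3K27ac, and 7.64 and 76.6% by H3K4me1 (means of 3 libraries). For Igf2 the closest were Prkca (r = 0.977), Kcnq1 (0.969), which lies farther along the same chromosome, and 1700020L24Rik (0.969). For Ins2 they were Tpsab1 (0.994), Jpx (0.993) and Bpifb6 (0.991), all of which, like Ins2, had little besides H3K27me3, and Tpsab1 went from 40.7 to 72.0% of its window for it.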

How the data were processed

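ChIP-seq lists of 30 libraries (5 marks, 3 WT and 3 KO each) on GRCm38 were used. Per the study's methods the authors trimmed 50-bp single-end reads with Trim Galore 0.6.6, aligned H3K4me3, H3K27me3 and H3K4me1 reads with Bowtie2 2.4.4, removed low-quality and multiply mapped reads, marked duplicates with SAMtools 1.15, left out blacklisted sequence and called each library against an input. Drosophila spike-ins in the H3K27me3 samples were left out by the authors. For H3K9me3 the methods say nothing and the steps are known from the labels alone, and the aligner for H3K27ac is not given in the sources used here. The authors deposited MACS2 2.2.7.1 peaks for H3K4me3, with a score, a fold ratio over input, and −log10 p-values and q-values. For the other marks the authors deposited epic2 regions (labels: SICER 0.0.52) with ChIP and input counts, a p-value and FDR, a log2 fold change over input, and a score made from it. The threshold in all lists was 0.05 (FDR or q-value), and only calls on the 19 autosomes and on X and Y entered. The labels name 1 antibody for both H3K27ac and H3K4me1, and the methods name another for H3K27ac.

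Coordinates were made 1-based. Covered bp counts bases under calls in a window, and a region's counts were spread evenly over it and clipped to the window. Genes are those of GENCODE M21, and elements and sequences those of RefSeq for GRCm38. Shares of all gene windows whose groups do not overlap cover windows with a call in at least 1 of the 6 libraries of a mark, or in all 6 for reads per kb. Members and lists were chosen with earlier results of these data known, so no test was run. Genes named were the members, all genes in the locus, set neighbours, 2 set lists and, for each member, the 3 genes of highest Pearson r, of which 1 is not reported here. The annotated RefSeq elements and the short Ins2 transcript were added after the files were seen. Inputs are 1 library per genotype and experiment, counted only inside called regions. Calculations used Python 3.11.15, numpy 2.4.6, pandas 2.3.3 and matplotlib 3.10.9, and were tested on simulated calls.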

Additional observations from a re-analysis of the deposited data

How the results depend on the processing

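Covered bp was compared over the locus with an FDR or q-value under 0.01, with equal numbers of top-ranked calls, with no flank and with a flank of 10 kb. Called ChIP reads per kb were compared by the library's total of reads in calls, per kb of called sequence, by whole calls and at the stricter FDR. Leaving out each library in turn and Ins2 at its short transcript were tried for both. No paired analysis was possible because the results come from no test and libraries with the same number are separate clones. Of 99 such values for 9 results, 98 kept the sign and 91 moved by less than 1 SD within a genotype. Of the 7 results whose groups did not overlap, 75 of 77 alternatives kept them apart in the same direction.

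The exception in sign was H3K27ac reads, which reversed per kb of called sequence, from a log2 KO/WT of 0.7024 to −0.0830, and between H19 and Ins2 to −0.12, where the KO calls were wider and not denser. On that scale H3K27me3 was at 0.35 instead of 0.70, H3K9me3 at −0.52 instead of −1.31 and H3K4me1 at 0.0082 instead of 0.26. Scaled by the library's total of reads in calls, H3K27me3 was at 0.56 and H3K27ac at 0.54. With the short Ins2 transcript, H3K27me3 was wider in the KO by 9509 instead of 33933 bp, and its reads were at 0.53. Leaving out 1 library gave KO minus WT differences of 5 to 456 bp for H3K4me3, with the lowest without WT replicate 2, of 25433 to 38733 bp for H3K27me3, of −11833 to −8367 bp for H3K9me3, of 17500 to 21100 bp for H3K27ac and of 4100 to 8900 bp for H3K4me1. In single windows, 348 of 371 alternatives of 40 results kept the sign. Absence of a call gives no count, and this limits every statement on a bare window.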
